A study of Mus musculus with 18 samples.

Results

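The genes described here are those whose signal was highest in fibroblast-derived cells that still expressed a reprogramming cassette on day 18. They were chosen by measured values: on both day 18 arrays the log2 signal had to be at least 1 (2-fold) above the mean log2 of each of 9 other groups, namely days 2, 4 and 8 of both cassettes, the induced pluripotent stem cell (iPSC) clones of both cassettes, and mouse embryonic stem cells (mESC). Symbols starting with Serpinb, Sprr, Lce, S100a or Col were left out by the rule. The rule took 99 transcript clusters (the array's unit, a set of probes summarised to 1 value) of 94 genes, out of 21789 transcript clusters with a single gene symbol (0.454%). Adamts9 had 6 transcript clusters and all 6 met the rule. Day 18 levels of these genes relative to the 9 groups are therefore a description with no test. Keratinocytes took no part in the choice.

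The series held 18 arrays in 12 groups. Sorted mCherry+ cells came from mouse embryonic fibroblasts (MEFs) carrying ROSA-rtTA and Nanog-GFP, which had received a piggyBac transposon with all 4 reprogramming factors (OCT3/4, KLF4, c-MYC and SOX2) and mCherry under doxycycline at 1 µg/mL. High-KLF4 cells carried OK+9MS, with the longer Klf4 reading frame, and low-KLF4 cells carried OKMS, with the shorter one. Each cassette gave 2 arrays of day 8 cells and 1 array each of day 2, day 4 and day 18 cells. High-KLF4 iPSC clones (A10 and H10), low-KLF4 iPSC clones (A7 and A9), the mESC line 1A2 and primary keratinocytes of newborn pups had 2 arrays each. Each iPSC array was a clone of its own, and the mESC and the keratinocytes carried no cassette. Sorting for mCherry on day 18, after cultures had been passaged on day 8, took cells in which the cassette was still active, and a group of 1 array has no spread of its own. In sorted bulk RNA, fewer cells of a type and less RNA per cell cannot be told apart. Day 6, starting MEF and TROP2-sorted arrays were not analysed here.

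During reprogramming, the 4 factors are expressed together in fibroblasts, which lose mesenchymal genes, gain epithelial ones and in part reach pluripotency. In the gastrulating mouse embryo, secreted antagonists of Nodal, BMP and Wnt signals from the anterior visceral endoderm and the organizer set up the head end, while the primitive streak forms mesoderm and definitive endoderm. The trophoblast, the outer lineage of the early embryo, builds the placenta and in rodents expresses a large family of prolactin-like hormones.

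Signals are linear intensities after robust multi-array averaging. They ranged from 20.2 to 19538.7 over all arrays, with array medians between 139.4 and 161.6, and no detection calls were used, so the level of an unexpressed gene is not known. The day 8 arrays stood apart from the other pairs: the root mean square of the log2 difference between both arrays was 0.436 in high-KLF4 and 0.458 in low-KLF4 cells, against 0.161 to 0.225 in the pairs of clones, mESC and keratinocytes. Among the transcript clusters chosen, 20 were 2-fold lower and 4 were 2-fold higher on array 2 than on array 1 of high-KLF4 day 8 cells (2.34% and 2.05% of 23410 transcript clusters). In low-KLF4 day 8 cells 24 were 2-fold lower and 6 were 2-fold higher (3.41% and 1.92% of all). The summed signal of 12 fibroblast markers moved with this, spanning 16129 to 43942 on the high-KLF4 day 8 arrays and 9843 to 45393 on the low-KLF4 day 8 arrays. Both day 18 arrays lay between, at 27490 in high-KLF4 and 27786 in low-KLF4 cells. The part of these markers in the results was not tested. Of the 12 fibroblast markers, Lum and Pdgfra are themselves among the chosen genes.

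Other marker lists were read in the same way. Of 9 endoderm markers, 5 (Foxa2, Gata4, Gata6, Sox17 and Sox7) were at least 2-fold above their day 8 mean and none was 2-fold below. Foxa2 and Sox17 are themselves among the chosen genes, so the rule had set them above day 8. The summed signal of the 9 markers, with Foxa2 and Sox17 in it, was 3454 in high-KLF4 and 3028 in low-KLF4 cells on day 18. On day 8 it was 1204 to 1289 and 954 to 1088. The 10 mESC markers summed to 23810 in high-KLF4 and 32578 in low-KLF4 day 18 cells, between the day 8 arrays (12639 to 15781 over both cassettes) and mESC (45275 to 50318). Among them, Pou5f1 (OCT3/4) and Sox2 are also cassette factors, so their signal in mCherry+ cells may include cassette transcript. Of 27 immune markers, 2 (C1qb and Lyz2) were 2-fold above day 8, and the list summed to 4774 on the high-KLF4 and 4401 on the low-KLF4 day 18 array. The keratinocyte arrays carried their label, since their 12 markers summed to 50780 and 50939, against 5186 and 3025 on the high-KLF4 and low-KLF4 day 18 arrays.

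The median signal of the 99 transcript clusters was 763.5 in high-KLF4 and 690.1 in low-KLF4 cells on day 18. In all other groups it was low: on day 2 it was 106.0 in high-KLF4 and 106.4 in low-KLF4 cells, on day 4 it was 107.3 and 106.8, on day 8 it was 124.7 and 127.3, and it was 114.6 and 124.6 in the iPSC clones, 110.6 in mESC and 98.6 in keratinocytes. The margin, the log2 distance from the lower day 18 array to the highest of the 9 group means, had a median of 1.36 and reached 5.62. It was at least 2 in 20 transcript clusters and at least 4 in 2. The group next in level was a day 8 group for 32 transcript clusters, an iPSC group for 24, a day 2 group for 20, mESC for 13 and a day 4 group for 10. For 60 transcript clusters (57 genes) the 9 group means all lay within 2-fold of each other. That flat profile is of means and leaves out keratinocytes, where Xdh, 1 of these genes, was at 1755 and 1758. Means also hid splits between day 8 arrays, as in Plpp3, at 3005 and 589 in low-KLF4 day 8 cells. By their means, 8 genes were 2-fold higher on day 8 than on day 2 with both cassettes (Krt18, Lum, Islr, Agtr2, Tmem184a, Serpina3n, Lcn2 and Prss8). Of these, Lum, Islr, Agtr2 and Serpina3n were 2-fold lower on array 2 of day 8 than on array 1 with both cassettes, and Tmem184a and Prss8 were 2-fold higher. By means, 16 genes stood higher on day 4 than on day 2 and higher again on day 8 with both. The shares of all transcript clusters with such courses or a flat profile were not counted, so nothing is read from these counts.

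**Figure D1:**
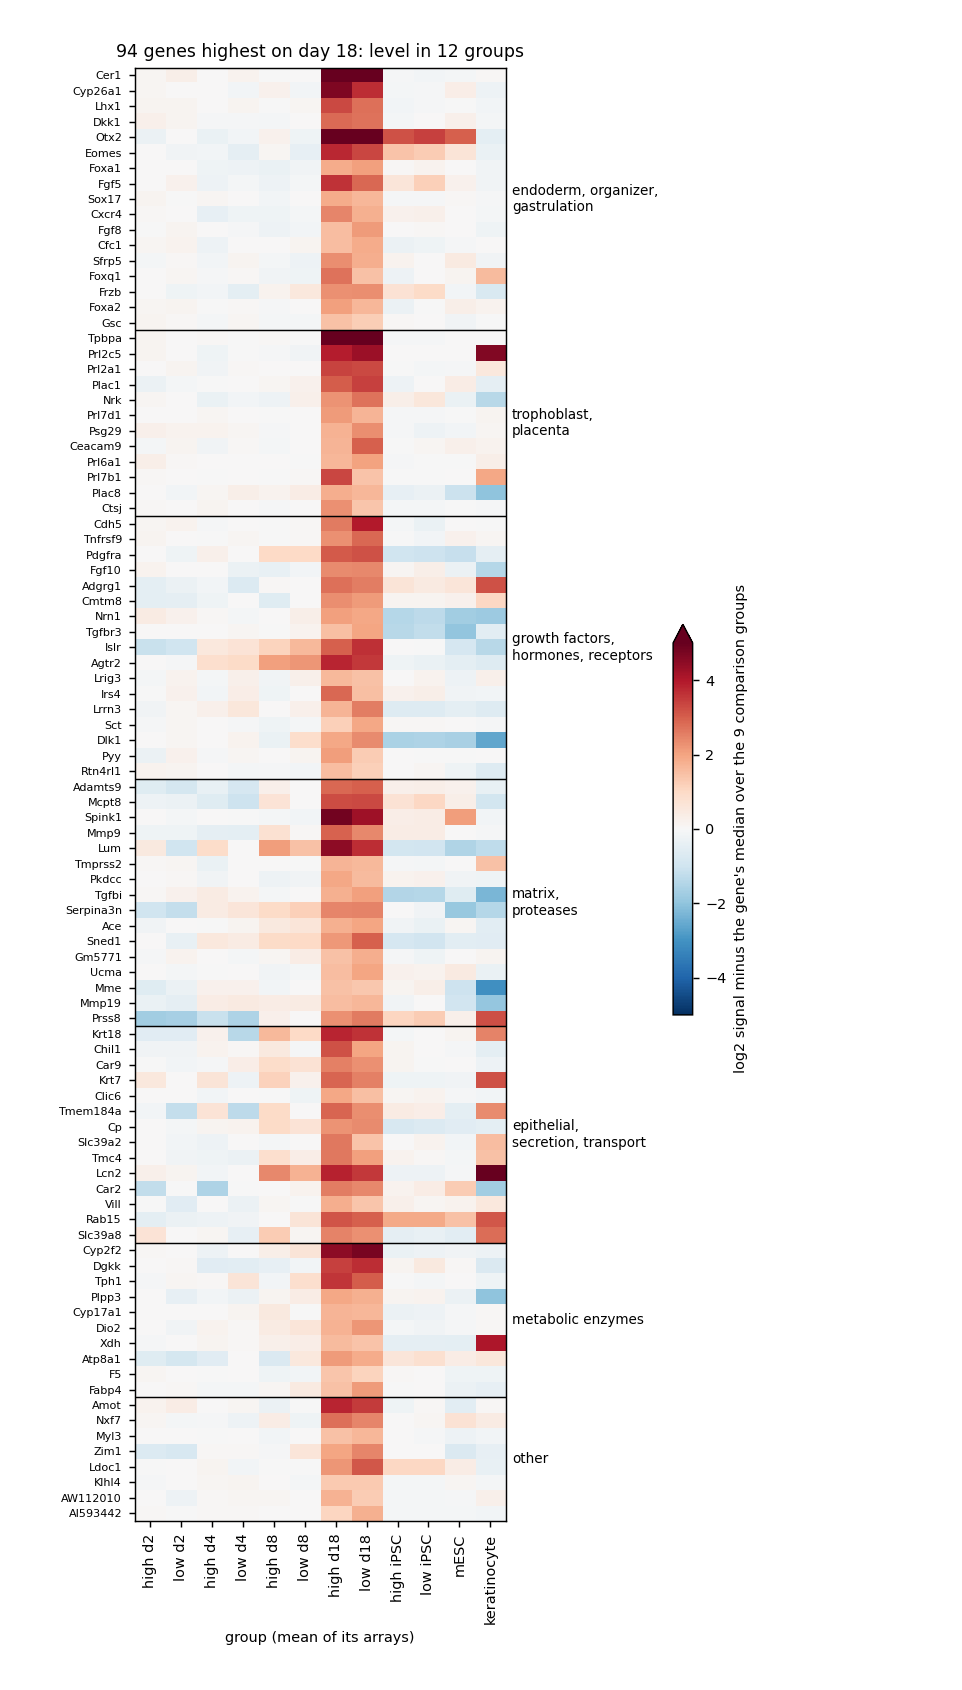
Log2 signal of the 94 genes in 12 groups (columns, means of 1 or 2 arrays), minus each gene's median over the 9 groups used by the rule; rows are grouped by role and, within a role, ordered by margin (Adamts9 by its transcript cluster with the largest margin). The day 18 columns are red by choice of the genes, most other columns are pale, and the keratinocyte column is red for some genes, among them Lcn2, Krt7, Prl2c5 and Xdh.

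The genes were sorted by known role after their values had been seen, so the groups below are descriptions. Of the 94 genes, 17 encode factors of endoderm, organizer or gastrulation. Cer1, a secreted antagonist of Nodal, BMP and Wnt signals, had the largest margin of all (5.62, or 49.1-fold). Its signal was 3141 in high-KLF4 and 4349 in low-KLF4 cells on day 18, against 46.9 to 63.9 on all arrays of the 9 groups and 51.9 and 59.4 in keratinocytes. The nearest other array, that of low-KLF4 day 2 cells, was 49.1-fold below the lower day 18 array.

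Lhx1, a LIM homeobox factor of the organizer, was at 964 in high-KLF4 and 664 in low-KLF4 cells on day 18, against 82.1 to 109 in the 9 groups. Dkk1, a secreted Wnt antagonist, was at 848 and 784, against 105 to 143. Cyp26a1, which degrades retinoic acid, was at 1575 in high-KLF4 and 798 in low-KLF4 cells, against 54.6 to 83.1. In these 3 genes, as in Cer1, no array of the 9 groups came near the day 18 arrays.

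Otx2 and Eomes followed another course. Otx2, a homeobox factor of anterior epiblast and neural tissue, was at 3007 in high-KLF4 and 3061 in low-KLF4 day 18 cells, at 592 to 786 in the iPSC clones, 533 and 628 in mESC, and 57.8 to 86.9 on days 2 to 8. It was the only chosen gene whose level in both clone groups and mESC was at least 2-fold above every mean of days 2 to 8. Eomes, a T-box factor of primitive streak and trophoblast, was at 1365 and 1020 on day 18, 223 to 306 in the clones, 155 and 156 in mESC, and 72.9 to 114 on days 2 to 8. Fgf5, a growth factor of the postimplantation epiblast, was at 1468 in high-KLF4 and 874 in low-KLF4 day 18 cells, with its next highest array a low-KLF4 clone at 369.

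The endoderm factors proper were lower in signal. Foxa2 was at 506 in high-KLF4 and 380 in low-KLF4 day 18 cells, against 86.9 to 152 in the 9 groups, Foxa1 was at 404 and 456, against 79.7 to 129, and Sox17 was at 229 and 201, against 53.2 to 69.8. Gsc, the homeobox factor goosecoid, was at 462 and 389, against 148 to 184. The Wnt antagonists Sfrp5 (477 and 336) and Frzb (437 and 447), the Nodal co-receptor gene Cfc1 (259 and 322), Fgf8 (776 and 1148) and the chemokine receptor Cxcr4 (582 and 364) were also among the 17. Of the 17 genes, 11 were higher in high-KLF4 and 6 in low-KLF4 day 18 cells, and 1, the forkhead factor Foxq1, differed 2-fold. With 1 day 18 array per cassette, nothing is read from these counts. Gata4, another endoderm factor, was at 1092 and 691 on the high-KLF4 and low-KLF4 day 18 arrays and fell just outside the rule at a margin of 0.95.

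Sequences upstream of the start sites are shown for 3 endoderm or organizer genes and 2 trophoblast genes, picked as examples that were high on both day 18 arrays and low on all arrays of the 9 groups. Each is the 250 bases before the start site, 5′ to 3′, from RefSeq (GRCm38.p6), and capitals mark matches on either strand to short letter runs. Core promoter boxes searched were TATAA and, farther upstream, CCAAT. Response elements searched were TGACG for cyclic AMP and TGANTCA for AP-1, with GGAATG for TEAD factors. Those of developmental factors were TGTTTAC for forkhead factors, AGATAA for zinc finger factors of the GATA family, TAATCC for OTX factors and GGTGTGA for T-box factors.
Cer1 (chr4:82885152-82885401, minus strand): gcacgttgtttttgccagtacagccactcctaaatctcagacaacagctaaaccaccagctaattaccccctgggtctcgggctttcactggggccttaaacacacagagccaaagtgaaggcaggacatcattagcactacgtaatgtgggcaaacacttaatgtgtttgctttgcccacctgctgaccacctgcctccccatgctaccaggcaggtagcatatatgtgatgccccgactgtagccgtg
Lhx1 (chr11:84525535-84525784, minus strand): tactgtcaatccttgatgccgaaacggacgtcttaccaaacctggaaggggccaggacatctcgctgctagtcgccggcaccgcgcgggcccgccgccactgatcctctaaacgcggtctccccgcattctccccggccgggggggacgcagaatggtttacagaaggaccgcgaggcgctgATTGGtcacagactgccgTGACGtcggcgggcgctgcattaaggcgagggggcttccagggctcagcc
Dkk1 (chr19:30549497-30549746, minus strand): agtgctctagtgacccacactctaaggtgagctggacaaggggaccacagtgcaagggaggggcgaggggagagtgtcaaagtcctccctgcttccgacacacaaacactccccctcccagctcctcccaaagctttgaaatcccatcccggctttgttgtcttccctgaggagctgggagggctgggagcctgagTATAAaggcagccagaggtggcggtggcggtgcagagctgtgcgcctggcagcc
Tpbpa (chr13:60941937-60942186, minus strand): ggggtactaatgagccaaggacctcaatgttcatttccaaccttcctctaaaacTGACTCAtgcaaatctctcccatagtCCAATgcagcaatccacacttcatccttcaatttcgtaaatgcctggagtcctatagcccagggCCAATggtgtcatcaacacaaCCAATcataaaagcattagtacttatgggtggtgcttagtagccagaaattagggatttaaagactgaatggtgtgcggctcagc
Prl2a1 (chr13:27801405-27801654, plus strand): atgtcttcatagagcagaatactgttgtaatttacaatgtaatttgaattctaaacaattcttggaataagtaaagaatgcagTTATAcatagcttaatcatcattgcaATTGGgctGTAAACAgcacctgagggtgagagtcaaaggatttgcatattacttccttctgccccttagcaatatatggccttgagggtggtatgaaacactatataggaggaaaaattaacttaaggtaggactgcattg

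The Cer1 window held none of these letters. The Lhx1 window held CCAAT 68 bases and TGACG 50 bases before the start, and the Dkk1 window held TATAA 54 bases before it. Tpbpa had an AP-1 match, read on both strands, 196 bases before the start and CCAAT at 170, 106 and 85 bases. Prl2a1 had a TATAA match at 167 bases, CCAAT at 141 and the FOX letters at 133 bases, all on the reverse strand. Promoters were at hand for 75 of the 94 genes, of which 24 (32.0%) held TATAA, against 23.5% of 27025 promoters. CACCC, the core of KLF and SP sites, was in 46 (61.3%), against 51.3% of all, TGTTTAC in 4 (5.33%), against 3.09%, and TAATCC in 4 (5.33%), against 6.38%. CCAAT was in 30.7%, against 34.5%, TGACG in 16.0%, against 17.9%, GGAAG (ETS) in 66.7%, against 63.6%, and CANNTG (E-box) in 57.3%, against 66.0%. TGANTCA was in 4.00%, against 6.87%, GGAATG in 14.7%, against 12.6%, AGATAA in 9.33%, against 10.3%, and GGTGTGA in 4.00%, against 3.31%. A match is a run of letters, not a bound site, and some matches overlap.

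**Figure D2:**
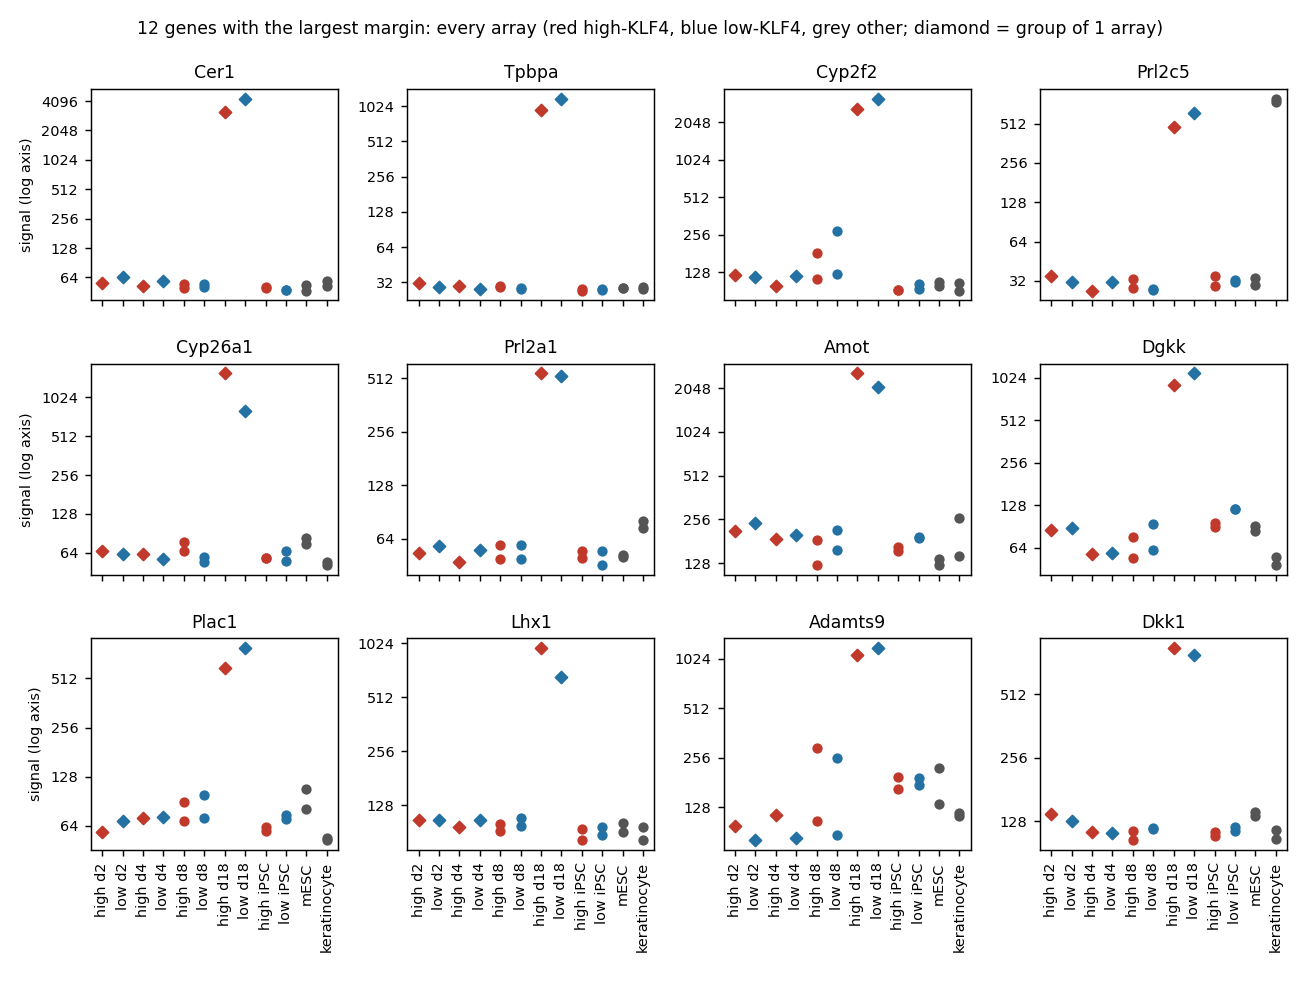
Signal on every array (log axis, scaled per gene) of the 12 genes with the largest margin, with high-KLF4 arrays in red, low-KLF4 arrays in blue, mESC and keratinocytes in grey, and diamonds for groups of 1 array. In 11 of the 12 genes only the day 18 arrays are high; Prl2c5 is higher still in keratinocytes, at 748 and 798.

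Trophoblast and placental genes formed the next group, with 12 genes. Tpbpa, the marker of spongiotrophoblast, was at 951 in high-KLF4 and 1192 in low-KLF4 day 18 cells, against 27.2 to 31.4 in the 9 groups and 28.2 and 29.2 in keratinocytes, a margin of 4.92 (30.3-fold). Prl2a1, a prolactin-family hormone of the placenta, was at 548 and 526, against 45.3 to 59.3. Plac1, an X-linked placental gene, was at 590 in high-KLF4 and 784 in low-KLF4 day 18 cells, against 59.1 to 108. In each of these genes both day 18 arrays stood clear of all others.

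Prl2c5, which encodes a proliferin, was at 482 in high-KLF4 and 619 in low-KLF4 day 18 cells, against 26.9 to 34.97 in the 9 groups. Proliferin genes are near-identical copies, so its probes may read more than 1 of them. Prl7d1 (168 in high-KLF4 and 126 in low-KLF4), Prl6a1 (94.4 and 120), Ctsj (181 and 97.7), a placental cathepsin, Psg29 (213 and 325) and Ceacam9 (254 and 619) were lower in signal. Plac8 was at 1646 and 1476 on day 18, but at 1592 on array 1 of low-KLF4 day 8 cells, so those 2 groups met on single arrays.

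Some of these genes were neighbours in the genome (GRCm38.p6), meaning chosen genes within 1 Mb of each other, whether or not other genes lay between. Prl6a1, Prl7b1, Prl7d1 and Prl2a1 lay together on chromosome 13 between 27312615 and 27808716, and Tpbpa (60938492 to 60941936) and Ctsj (61000179 to 61005925) neighboured each other farther along it. Ceacam9 (16721929 to 16726110) and Psg29 (17203477 to 17215756) were neighbours on chromosome 7. Chromosome 13 held 11 of the 94 genes (11.7%) and 3.69% of the 19856 placed genes on the array, and chromosome X held 9 (9.57%), against 3.72%. The 9 X-linked genes were Amot, Dgkk, Plac1, Nxf7, Nrk, Agtr2, Irs4, Ldoc1 and Klhl4, of which Plac1 and Nrk, a kinase gene, are used in placenta. Most of each family did not take part: 5 of 19 prolactin-family genes, 1 of 12 Psg genes and 1 of 6 placental cathepsins measured were among the chosen genes. Of the 14 other prolactin-family transcript clusters, 5 were higher on day 18 than on day 8 in limma's test and none was lower (7.45% and 10.7% of all). Their median log2 difference was 0.13, and that of Prl5a1, the highest, was 0.84. The test assumed that the lone day 18 array of each cassette varied like those of the paired groups.

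Growth factors, hormones and receptors made up 17 genes. Pdgfra, the receptor of PDGF on mesenchymal cells, was at 1778 in high-KLF4 and 1927 in low-KLF4 day 18 cells. On day 8 it was at 834 and 222 in high-KLF4 cells and at 817 and 220 in low-KLF4 cells, and it was at 87.1 to 113 in clones and mESC. Fgf10 was at 929 and 962, against 98.5 to 278 in the 9 groups. Cdh5, the endothelial cadherin, was at 551 in high-KLF4 and 1410 in low-KLF4 day 18 cells, against 70.0 to 103. Of 12 endothelial markers, Cdh5, Sox17 and Pecam1 were 2-fold above day 8 and 1 was 2-fold below. Cdh5 and Sox17 are chosen genes, so the rule had set them above day 8. The 12 markers summed to 2868 in high-KLF4 and 3680 in low-KLF4 day 18 cells, against 2352 to 3639 on day 8. Dlk1, an imprinted gene of fetal tissues, was at 5414 and 7222 on day 18, but at 3855 on array 1 of low-KLF4 day 8 cells, against 620 on array 2 of high-KLF4 day 8 cells.

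Matrix and extracellular protease genes gave 16 genes (21 transcript clusters). Adamts9, a secreted metalloprotease, was at 1087 in high-KLF4 and 1193 in low-KLF4 day 18 cells in its clearest transcript cluster, against 80.5 to 295 in the 9 groups. Lum, the matrix proteoglycan lumican, was at 2316 and 1333 on day 18. On day 8 it was at 988 and 201 in high-KLF4 cells and at 776 and 105 in low-KLF4 cells, and it was at 35.1 to 56.6 in clones and mESC. Tgfbi, a secreted matrix protein, was at 4836 and 5812 on day 18, at 2476 and 696 on day 8 in high-KLF4 cells and at 2763 and 722 on day 8 in low-KLF4 cells. In Lum and Tgfbi array 1 was the higher of the day 8 arrays with either cassette. Spink1, a trypsin inhibitor, showed no such spread: it was at 903 in high-KLF4 and 609 in low-KLF4 day 18 cells, 119 and 152 in mESC, and 28.8 to 45.0 on all other arrays of the 9 groups.

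In all, 18 transcript clusters were 2-fold lower on array 2 of day 8 with both cassettes and 3 (Tmem184a, Tmc4 and Prss8) were 2-fold higher with both. The 18 held mesenchymal and matrix genes such as Lum, Pdgfra, Tgfbi, Islr, Mmp19, Dlk1 and 3 transcript clusters of Adamts9, and also Agtr2, the angiotensin receptor, which was at 987 and 132 in high-KLF4 and at 1292 and 128 in low-KLF4 day 8 cells. Agtr2 was at 1246 in high-KLF4 and 1029 in low-KLF4 day 18 cells, so array 1 of low-KLF4 day 8 cells was above the low-KLF4 day 18 array. With the day 8 mean of 1 cassette taken from array 1 alone, 15 (high-KLF4) or 20 (low-KLF4) of the 99 transcript clusters no longer met the rule, among them Lum, Islr, Agtr2, Mme, Mmp19, Nrn1, Plpp3, Serpina3n and Tgfbi with either cassette. With array 2 alone, 6 (high-KLF4) or 3 (low-KLF4) were lost, with Lcn2 in both. All 20 transcript clusters with a margin of at least 2 met the rule in each of these cases.

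**Figure D3:**
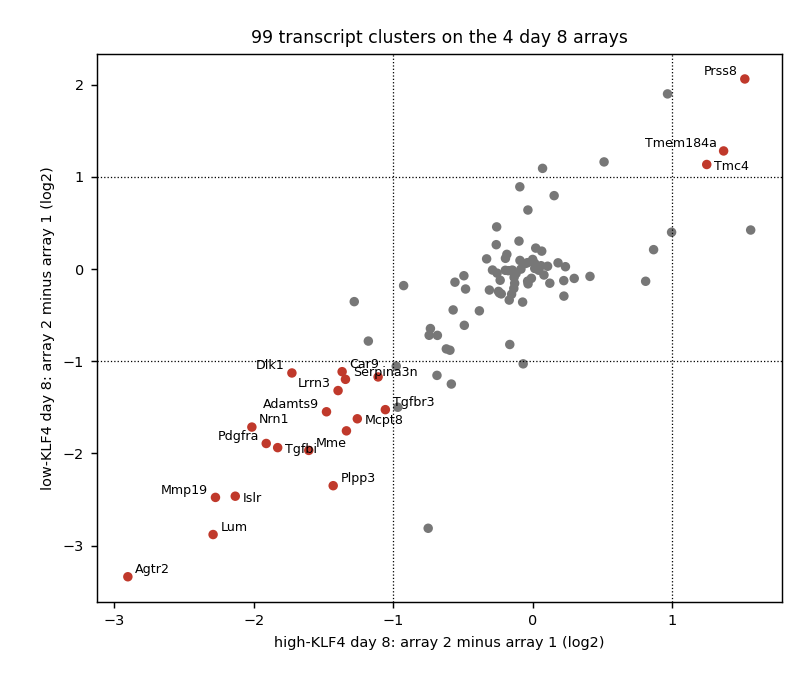
Log2 difference between array 2 and array 1 of day 8 for the 99 transcript clusters, in high-KLF4 (x axis) and low-KLF4 cells (y axis); dotted lines mark 2-fold and red points passed it with both cassettes in 1 direction. The red points are 18 at lower left, mostly mesenchymal and matrix genes, and 3 epithelial genes at upper right.

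The epithelial keratin, secretion and transport genes numbered 14. Krt18, a simple-epithelial keratin, was at 7739 in high-KLF4 and 6924 in low-KLF4 day 18 cells. It was at 381 and 379 on day 2, 643 and 211 on day 4, and on day 8 the arrays gave 1432 and 2040 for high-KLF4 and 735 and 1647 for low-KLF4 cells. The clones were at 508 to 585. Krt7, less than 1 Mb away on chromosome 15, was at 1404 in high-KLF4 and 1070 in low-KLF4 day 18 cells, against 150 to 590 in the 9 groups. Lcn2, a secreted iron-siderophore binder, was at 1145 and 915, and Chil1, a secreted chitinase-like protein, was at 1185 and 512. Car2, a carbonic anhydrase, was at 2801 and 2495 on day 18, with mESC next at 1101 and 1189. Of these 14 genes, 13 were higher in high-KLF4 than in low-KLF4 day 18 cells, with a median log2 difference of 0.36. With 1 day 18 array per cassette and a group formed after the values had been seen, nothing is read from this count.

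Metabolic enzymes made up 10 genes. Cyp2f2, a cytochrome P450 known from lung, was at 2612 in high-KLF4 and 3158 in low-KLF4 day 18 cells, against 92.9 to 277 in the 9 groups (a margin of 3.81). Tph1, the first enzyme of serotonin synthesis outside the brain, was at 901 and 622, against 65.8 to 170. Dgkk, a diacylglycerol kinase, was at 905 and 1101, against 54.0 to 120. Amot, which encodes angiomotin of the Hippo pathway and belongs to the 8 other genes, was at 2594 in high-KLF4 and 2100 in low-KLF4 day 18 cells, against 124 to 241. At the other end of the range, the transcript clusters just inside the rule were AI593442 (margin 1.01, signals 117 and 194), Fabp4 (1.01, 192 and 306) and F5 (1.02, 158 and 133), and those just outside were Fxyd1 (0.96, 499 and 683), Greb1l (0.95, 578 and 537) and Gata4.

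Between cassettes on day 18, 92 of the 99 transcript clusters were within 2-fold of each other. Those beyond 2-fold, given below, were a larger share than over all transcript clusters. Of the 99, 53 were higher and 46 lower in high-KLF4 than in low-KLF4 cells, and the median log2 difference was 0.07, against -0.04 over all. With 1 array per cassette, nothing is read from these counts. The rule asked both day 18 arrays to be high and so limited how far one of them could fall. Those 2-fold higher in high-KLF4 cells were 5 (0.867% of all transcript clusters): Prl7b1, Irs4, Slc39a2, Foxq1 and Chil1. Those 2-fold lower were 2 (0.094% of all): Cdh5 and Ceacam9.

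Each cassette had 1 array on day 18, and those arrays had chosen the genes, so the differences below are descriptions. Prl7b1, a placental prolactin-family gene, was at 266 in high-KLF4 and 70.1 in low-KLF4 day 18 cells, against 25.2 to 27.7 in the 9 groups (log2 difference 1.92). Slc39a2, a zinc transporter, was at 454 and 195 (1.22), and Ctsj was at 181 and 97.7 (0.89). Cdh5 was at 551 in high-KLF4 and 1410 in low-KLF4 cells (-1.35). A limma fit that assumed these lone arrays to vary like those of the paired groups put Prl7b1, Slc39a2 and Ctsj past an adjusted p of 0.05 towards high-KLF4 (3 of the 99, and 0.107% of all) and Cdh5 towards low-KLF4 (1 of the 99, and 0.00427% of all), and nothing is read from these counts.

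**Figure D4:**
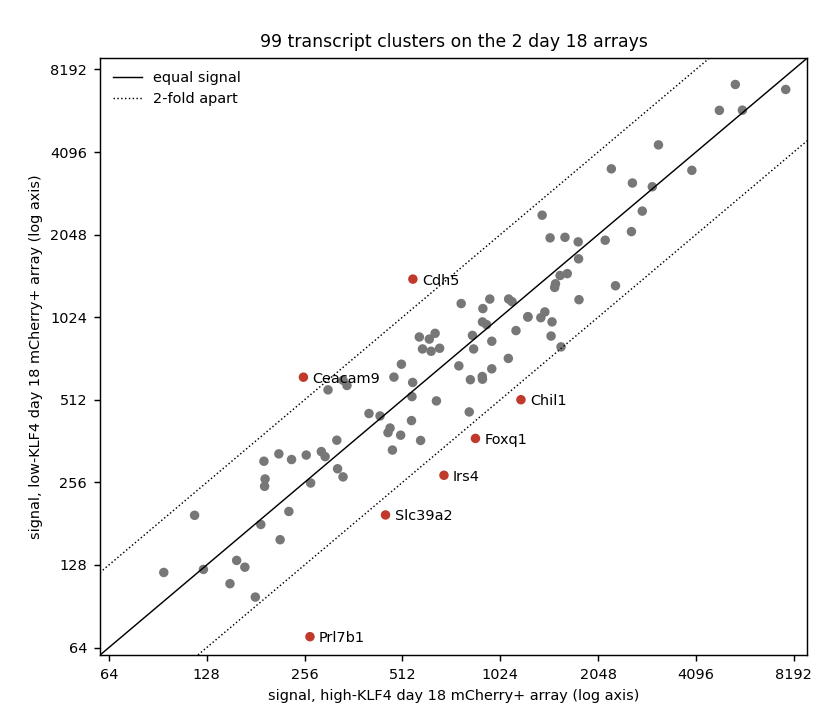
Signal of the 99 transcript clusters on the high-KLF4 (x axis) and low-KLF4 (y axis) day 18 arrays, both on log axes; the solid line marks equal signal, dotted lines mark 2-fold and red points lie beyond it. The points run along the line from about 70.1 to 7739, with Cdh5 and Ceacam9 above the band and Prl7b1, Slc39a2, Irs4, Foxq1 and Chil1 below it.

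Before day 18 the cassettes were compared on arrays that the rule had only capped. On day 8, 1 transcript cluster was higher in high-KLF4 cells, Nxf7 (63.5 and 66.1 in high-KLF4, 42.7 and 43.8 in low-KLF4 cells, log2 difference 0.58, SE 0.13, limma adjusted p = 0.0486), and 1 was lower, Tph1 (70.4 and 68.7 in high-KLF4, 109 and 170 in low-KLF4 cells, -0.97, SE 0.18, adjusted p = 0.0234). Of all transcript clusters, 2.71% were higher and 1.29% lower in the same test. The call of Nxf7 was lost with any 1 of the 4 day 8 arrays left out and after a second normalization, and that of Tph1 was lost without array 2 of high-KLF4 cells. Neither call held in a fit of the 4 compared arrays alone or in the methods' t-test, where none of all transcript clusters passed. Nxf7 was also among the chosen genes left out by a filter on dim probes. Over days 2 to 8 together none of the 99 passed limma's test (10 had an unadjusted p under 0.05, against 15.4% of all), while 0.449% of all were higher and 0.0598% lower. Both fits ignored the number of the day 8 arrays, which no label ties to a shared experiment. With it as a block, 13 of the 99 passed on day 8 (7.48% of all were higher and 5.1% lower). Over days 2 to 8, 6 then passed (4.5% of all were higher and 2.44% lower). Between the clones none passed, with 1 at an unadjusted p under 0.05 (0.957% of all), and none of all transcript clusters did (0.0%). The methods' t-test also called none between the clones after adjustment, with 12 at an unadjusted p under 0.05 (4.08% of all).

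Set against day 8, the cassette difference on day 18 lay farther towards high-KLF4 by a log2 value of 2.01 in Prl7b1, 1.33 in Slc39a2 and 0.97 in Ctsj. Irs4, an X-linked insulin receptor substrate at 687 in high-KLF4 and 272 in low-KLF4 day 18 cells, shifted by 1.54, and Cdh5 by -1.30, towards low-KLF4. These 5 passed the interaction term of the same limma fit, 4 towards high-KLF4 (0.111% of all) and 1 towards low-KLF4 (0.137% of all). The term rests on the same lone day 18 arrays, so the shifts too are descriptions.

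In keratinocytes most of the chosen genes were low. Of the 99 transcript clusters, 85 were at least 2-fold below the day 18 mean (7.4% of all transcript clusters were), 12 were within 2-fold and 2 were at least 2-fold above, with a median log2 difference of -2.21. The day 18 values had chosen the genes, so nothing is read from that share. The epithelial group was nearest to keratinocytes, with a median of -0.98 and 7 of 14 at least 2-fold below, and in the endoderm group 16 of 17 were 2-fold below. The peak on day 18 held among reprogramming and pluripotent groups and not for 8 genes that were higher in keratinocytes: Xdh, Lcn2, Prss8, Adgrg1, Prl2c5, Krt7, Slc39a8 and Rab15.

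Set against mESC, a group that the rule had capped, 20 transcript clusters were higher in keratinocytes (20.2%, against 17.7% of all) and 14 were lower (14.1%, against 20.4% of all), and the median log2 difference was -0.08. Lcn2 was at 3251 and 3273 in keratinocytes, against 72.4 and 78.6 in mESC (log2 difference 5.43, SE 0.53, limma adjusted p = 8.5e-05). Prl2c5 was at 748 and 798 in keratinocytes, against 29.8 and 33.8 in mESC (4.61, SE 0.12, adjusted p = 7.32e-08). Xdh, xanthine dehydrogenase, was at 1755 and 1758 in keratinocytes, against 73.7 and 81.7 in mESC (4.50, SE 0.27, adjusted p = 5.35e-06). Keratinocyte arrays lay far above mESC arrays in all 3 genes.

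Krt7 (3.36) and Slc39a8 (3.32), a metal-ion transporter, also rose, as did Prss8 (2.98), a membrane-anchored serine protease, Tmem184a (2.86), Adgrg1 (2.61), an adhesion receptor, and Krt18 (2.38). Among the prolactin-family genes, Prl7b1 was at 83.0 and 123 in keratinocytes, against 26.3 and 26.5 in mESC (1.94, SE 0.16, adjusted p = 2.74e-05), above the low-KLF4 day 18 array. The largest falls were in Otx2, at 52.7 and 53.5 in keratinocytes, against 533 and 628 in mESC (-3.45, SE 0.14, adjusted p = 6.2e-07), Car2 (-3.03), Spink1 (-2.20) and Mme (-2.03), a membrane metalloendopeptidase. Of the endoderm group, Otx2, Eomes, Cyp26a1, Sfrp5 and Dkk1 were lower and Foxq1 was higher in keratinocytes.

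**Figure D5:**
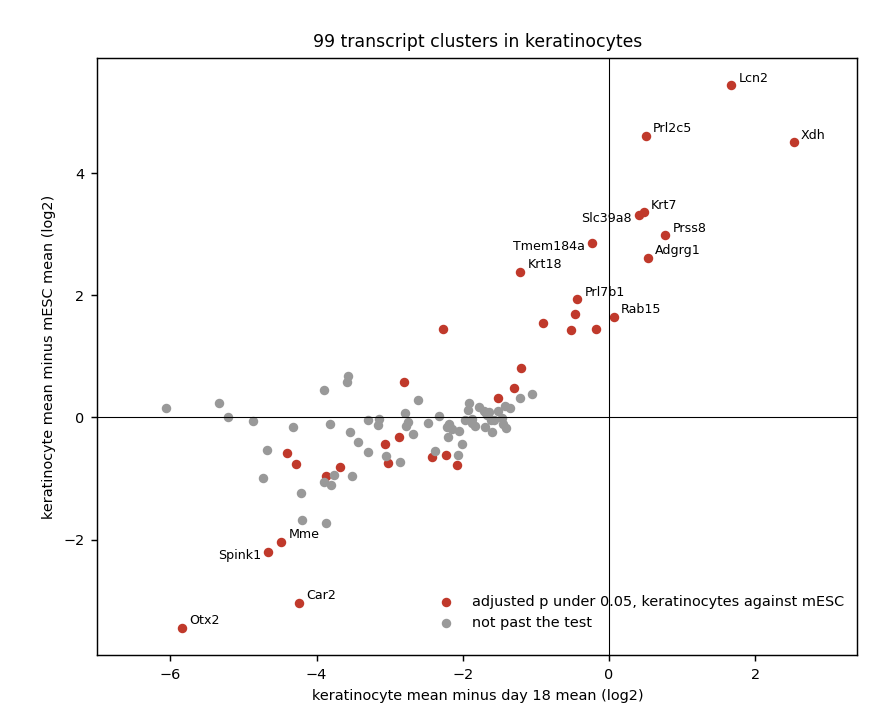
Keratinocyte mean minus day 18 mean (x axis, log2) and minus mESC mean (y axis, log2) for the 99 transcript clusters, with red for those past limma's test of keratinocytes against mESC. Most points lie left of 0, and 8 lie right of it, led by Xdh and Lcn2.

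The genes of the same pathways that did not meet the rule were compared between day 18 and day 8, with both cassettes together, where 7.45% of all transcript clusters were higher and 10.7% lower. The chosen genes are left out of these counts. Each cassette had 1 array on day 18, which adds no spread of its own. The SE and p values here and in the lists below therefore assume that day 18 arrays vary like those of the paired groups. In the trophoblast and placenta list, 6 of 31 measured genes were among the chosen (Tpbpa, Eomes, Plac1, Prl7d1, Plac8 and Ctsj), and of the other 25, 11 were higher and none was lower, with a median of 0.27. Rhox9, an X-linked homeobox gene of placenta and gonad, was at 3070 in high-KLF4 and 2247 in low-KLF4 cells on day 18, against 309 and 378 on day 8 in high-KLF4 and 136 and 128 on day 8 in low-KLF4 cells (log2 difference 3.63, SE 0.17, limma adjusted p = 8.14e-06). Peg10 (1.91), a retrotransposon-derived placental gene, Rhox6 (1.85) and Ascl2 (1.23), a spongiotrophoblast factor, were also higher.

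The pluripotency list held no chosen gene, and 25 of its 28 transcript clusters were higher on day 18 than on day 8 and none was lower, with a median of 1.98. Dppa5a was at 4296 in high-KLF4 and 6885 in low-KLF4 cells on day 18, against 460 and 498 on day 8 in high-KLF4 and 83.6 and 89.4 on day 8 in low-KLF4 cells (4.74, SE 0.12, limma adjusted p = 2.19e-07). The Nodal antagonists Lefty1 (3.52) and Lefty2 (3.18) were higher as well. By their median signal, the 10 mESC markers, the cassette factors Pou5f1 and Sox2 included, stood at 2023.5 (high-KLF4) and 2682.0 (low-KLF4) on day 18. The clones were above this at 4688.8 and 4501.6, and mESC at 5134.0.

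In the solute carrier list, 2 of 26 genes were chosen (Car2 and Slc39a2), and of the other 24, 6 were higher, with Car4 at 4996 in high-KLF4 and 5207 in low-KLF4 cells on day 18, against 64.3 to 74.4 on day 8 (6.24, SE 0.21, adjusted p = 9.94e-07 in limma), and 1, Aqp3, was lower. The acute phase list gave 3 chosen genes (Chil1, Lcn2 and Serpina3n) and 7 higher, none lower, of 24 others, led by Wfdc2 (2.32). The mesenchymal list gave 3 chosen genes (Lum, Pdgfra and Tgfbi), and none of the 28 others passed in either direction, with a median of 0.06. Summed fibroblast markers differed widely between the day 8 arrays (16129 to 43942 in high-KLF4, 9843 to 45393 in low-KLF4 cells). Such spread widens the SE, so the lack of calls does not show that the 28 were unchanged. The list of keratins and stratified epidermis gave no chosen gene, with 1 higher and 10 lower of 37, Krt6b falling most, at 399 in high-KLF4 and 77.4 in low-KLF4 cells on day 18, against 4781 and 6134 on day 8 in high-KLF4 and 1244 and 1272 on day 8 in low-KLF4 cells (-3.89, SE 0.18, adjusted p = 6.85e-06 in limma). The xenobiotic list held 2 chosen genes (Cyp26a1 and Cyp2f2) and, of 35 others, 2 were higher, 12 were lower and the rest passed in neither direction. The lipid list had 7 higher and 6 lower of 40 transcript clusters beside Fabp4, the hypoxia list 4 higher and 1 lower of 22 beside Car9, and the protease list 5 higher and 1 lower of 32 beside Mmp9, Prss8 and Tmprss2. The simple and glandular epithelial list gave 3 chosen genes (Krt18, Krt7 and Spink1) and 3 higher and none lower of 34 others. The cell cycle list had none chosen, with none higher and 2 lower of 26 transcript clusters. Of the remaining lists, none held a chosen gene: 2 EGFR ligand and receptor genes of 13 were lower, chemokines and cytokines gave 2 higher and 1 lower of 33, antigen presentation 3 higher of 37 transcript clusters, interferon-stimulated genes 3 higher and 6 lower of 28, growth arrest and senescence 2 higher and 5 lower of 28, and lysosome and autophagy 1 higher and 1 lower of 24.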

How the data were processed

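Values were taken from the deposited table of 18 Affymetrix Mouse Gene 1.0 ST arrays, 1 per sample. Per the methods, the authors had applied RMA in GeneSpring, and the deposited values were linear intensity signals with no centring, so log2 was taken before use. Of 28853 transcript clusters, 21789 carried 1 gene symbol in the platform annotation, 1621 several and 5443 none. Symbols of all 94 genes matched RefSeq (GRCm38.p6), which gave positions and promoters. Members and gene lists were chosen with earlier results of these data known, and roles and 4 of the 12 motifs were set after the members were known.

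Tests used limma 3.58.1 in R 4.3.3, fitted over 12 groups and 23410 transcript clusters with at least 1 symbol (6 residual and 2.25 prior degrees of freedom, prior SD 0.12), with Benjamini-Hochberg adjustment over all of them and a threshold of 0.05. The script was tested on simulated data. Genes named were the 12 of largest margin, the extremes of each comparison and of each list, those next to the threshold, and neighbours within 1 Mb. Per the study's methods, both arrays of day 8 cells, mESC and keratinocytes came from independent experiments, and each clone had 1 array. The number of arrays limits the precision. Alternatives were a filter on dim probes, a second quantile normalization, limma-trend, fits of the compared arrays alone, the methods' t-test, a block for the array number, arrays left out and other forms of the rule.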

Additional observations from a re-analysis of the deposited data

Results flagged for a closer look

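In limma's interaction term, the cassette difference on day 18 stood apart from that on day 8 for 5 of the 99 transcript clusters. Relative to day 8, the log2 difference of high-KLF4 over low-KLF4 cells shifted by 2.008 for Prl7b1, 1.536 for Irs4, 1.334 for Slc39a2 and 0.974 for Ctsj, all towards high-KLF4, and by -1.301 for Cdh5, towards low-KLF4. Each rests on 1 array per cassette on day 18, assumed to vary like the paired groups, and those arrays also chose the genes, so these values are a description. Without array 2 of day 8 of either cassette the 4 shifts towards high-KLF4 no longer passed, at adjusted p = 0.0613 to 0.0901 in limma, and that of Cdh5 did (0.00983 and 0.0448). On day 8 none of the 5 passed limma's test between cassettes. No group held enough arrays for a check of single outlying arrays, since every group had 1 or 2.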

How the results depend on the processing

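The 99 transcript clusters became 64 when the highest array of each group replaced its mean and 20 at a margin of 2 (log2). Leaving out 1 array in turn gave 83 to 100. On day 8 the count higher in high-KLF4 cells (1) became 0 without the dimmest 30% of probes and after a second quantile normalization. It was also 0 in the fit of the 4 arrays alone and in the methods' t-test. With arrays left out it was 1 to 3, none of them Nxf7. The count lower there (1) became 2 without the dim probes, 0 in the fit of 4 arrays and in the t-test, and 0 to 5 with arrays left out. On day 18 the count higher in high-KLF4 cells became 0 without the dim probes, where Prl7b1 and Ctsj were among 22 of the 99 no longer tested and Slc39a2 had an adjusted p of 0.0503. The count lower there became 3 after the second normalization. The interaction count towards high-KLF4 (4) became 0 without the dim probes and 0 to 6 with arrays left out. Keratinocytes against mESC gave 6 higher and 4 lower in the t-test, 29 lower in the fit of 4 arrays, and 9 to 13 lower with arrays left out. Listed other genes lower on day 18 than on day 8 (48) were 74 without array 1 of high-KLF4 day 8 cells. For single named genes, 304 of the alternative values kept their side of the threshold, 92 lost it and none was reversed. The cause was not tested.

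The number of the day 8 arrays is not said to mark an experiment that both cassettes shared, but deviations of same-numbered arrays correlated across the cassettes (r = 0.735 across genes). With that number as a replicate block, 8 transcript clusters were higher and 5 lower on day 8 (7.48% and 5.1% of all), and 4 higher and 2 lower over days 2 to 8 (4.5% and 2.44% of all). Keratinocyte and mESC arrays showed no such relation (r = 0.014). Low signals near the floor of the array and single arrays on days 2, 4 and 18 limit what could be detected.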

Other observations

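Some transcript clusters outside the 99 also exceeded the margin on both day 18 arrays. They were 2 with a single symbol of a left-out family (Serpinb9d and Serpinb9e), 4 with several symbols and 5 with no symbol in the annotation used here. Most of the 4 also began with a left-out symbol, since taking in several-symbol clusters under the same rule gave 100 transcript clusters.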
